A study of Mus musculus with 13 samples.

Results

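The 4 genes described here encode nuclear hormone receptors: Esr1 (estrogen receptor alpha), Thra and Thrb (thyroid hormone receptors alpha and beta) and Nr3c2 (the mineralocorticoid receptor). They are 4 of the 55357 genes in the deposited count table and were found in it by their symbols. They were chosen from measured values of these same libraries, and which comparison guided the choice is not recorded, so their levels and fold changes in every comparison are given as a description and without p-values. How many of them passed the test run over all genes is given only beside the share of all genes that passed. The working name under which the set was proposed does not mention the mineralocorticoid receptor.

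Nuclear hormone receptors are transcription factors that bind a small hormone and DNA. Thyroid hormone receptors sit on DNA as partners of retinoid X receptors, and in brown fat thyroid hormone, activated inside the cell by the deiodinase Dio2, supports the transcription of Ucp1, the mitochondrial uncoupling protein that makes heat. Estrogen receptor alpha and the mineralocorticoid receptor are steroid receptors, which are held by heat shock chaperones until hormone binds; the mineralocorticoid receptor binds aldosterone and also glucocorticoids, and both receptors are found in adipocytes.

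The data are 13 libraries of mouse brown adipose tissue RNA, made with a kit that sequences the 3′ ends of messenger RNAs. Mice carried floxed alleles of both Stim1 and Stim2, which encode the calcium sensors of the endoplasmic reticulum that open calcium channels of the cell surface. Control mice (Stim1/2 fl/fl) carried the floxed alleles alone, and knockout mice (KO) in addition carried Adp-Cre, a Cre recombinase driven by the adiponectin promoter. That promoter is active in white as well as brown adipocytes, and the vessel, immune, nerve and stromal cells of the tissue keep both genes. Mice stayed at room temperature (RT) or spent 6 h at 4 °C (cold) before the tissue was taken, which gave 2 control RT, 3 KO RT, 4 control cold and 4 KO cold libraries. The labels give neither age nor sex, and do not say that libraries of a group came from separate animals. The p-values given for other genes then measure only the spread between these libraries. The tissue is bulk, so fewer cells of a type and less RNA per cell cannot be told apart in any value below.

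Library totals ran from 1570684 to 2016178 counts. All 10 brown adipocyte markers (Ucp1, Cidea, Elovl3 and others) were detected. Stim1 and Stim2 were lower in every KO library than in every control library at the same temperature; whether the 3′ tags lie in the deleted part of either gene is not given, and only Stim2 in the cold passed the test (log2 fold change −0.88, adjusted p = 0.0382 by edgeR's quasi-likelihood test). The Stim2 call was lost in 8 of 19 alternative settings. In the cold, Stim1 gave an adjusted p of 0.057, and passed by DESeq2 and without KO cold 4; at RT it passed by DESeq2 and without the filter on low counts. The cold libraries had fewer genes detected (15506 to 16106) than the RT libraries (16260 to 17061). Transcripts of skeletal muscle, a tissue that borders brown fat, also moved with temperature: the summed level of 7 muscle markers, in CPM (counts scaled to the size of the library), was 2131 in control RT 1, 1244 in KO RT 1 and 855 in KO RT 2, against 19.3 and 61.4 in the other RT libraries and 0.612 to 274 in the cold libraries.

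The sequences by which these receptors touch DNA are shown first. A short helix in the first zinc finger of each receptor touches the DNA, and a few of its residues differ between receptor classes. The coding runs below, 24 bases each from the annotated GRCm38 transcripts, cover the start of that helix, with the codons of the class-specific residues in capitals.
Esr1: tgcGAAGGCtgcaagGCTttcttt
Thra: tgtGAGGGCtgcaagGGCttcttt
Thrb: tgtGAAGGCtgcaagGGCttcttt
Nr3c2: tgcGGCAGCtgcaaaGTCttcttc
The runs of Thra and Thrb were identical at 23 of 24 bases and each is split by an intron in the genome. Esr1 shared 20 bases with Thra and 21 with Thrb. Nr3c2 shared 17 of the 24 bases with each of the other 3.

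Esr1 was far lower after cold in both genotypes. At RT it stood at 77.2 and 63.9 CPM in the control libraries and at 85.1, 104.4 and 74.0 CPM in the KO libraries. After 6 h of cold it stood at 4.61, 15.4, 6.81 and 7.06 CPM in the control libraries and at 9.18, 10.4, 15.2 and 15.8 CPM in the KO libraries. Every cold library was below every RT library by a wide margin, with 8 to 28 Esr1 counts per cold library against 106 to 182 per RT library. Among control libraries in the cold, replicate 2 was the high one; it was also the highest of the 4 in fibroblast and preadipocyte markers (1483 against 554 to 867 CPM) and in macrophage markers (311 against 110 to 198 CPM), whose part in the value was not tested.

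The group means of Esr1 were 70.6 ± 9.45 CPM (SD, n = 2) in control RT, 87.8 ± 15.4 (n = 3) in KO RT, 8.48 ± 4.77 (n = 4) in control cold and 12.7 ± 3.33 (n = 4) in KO cold. The log2 fold change of cold against RT was −3.05 ± 0.29 (SE) in control mice, which is 8.30-fold lower, and −2.79 ± 0.25 in KO mice, which is 6.89-fold lower. Only 0.578% of the 11073 tested genes had a lower value in the control comparison, and 0.424% in the KO comparison. From the summed counts alone the ratio of RT to cold was 8.45 in control mice, with an exact 95% interval of 6.29 to 11.5 that covers counting error only.

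Between genotypes the Esr1 levels overlapped at both temperatures. The KO libraries were higher by a log2 fold change of 0.58 ± 0.32 in the cold and 0.31 ± 0.26 at RT. The cold value rested in part on control cold 2, without which it was 1.05. The cold responses of the genotypes differed by 0.27 ± 0.40 (KO minus control), which is less than its own standard error.

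**Figure D1:**
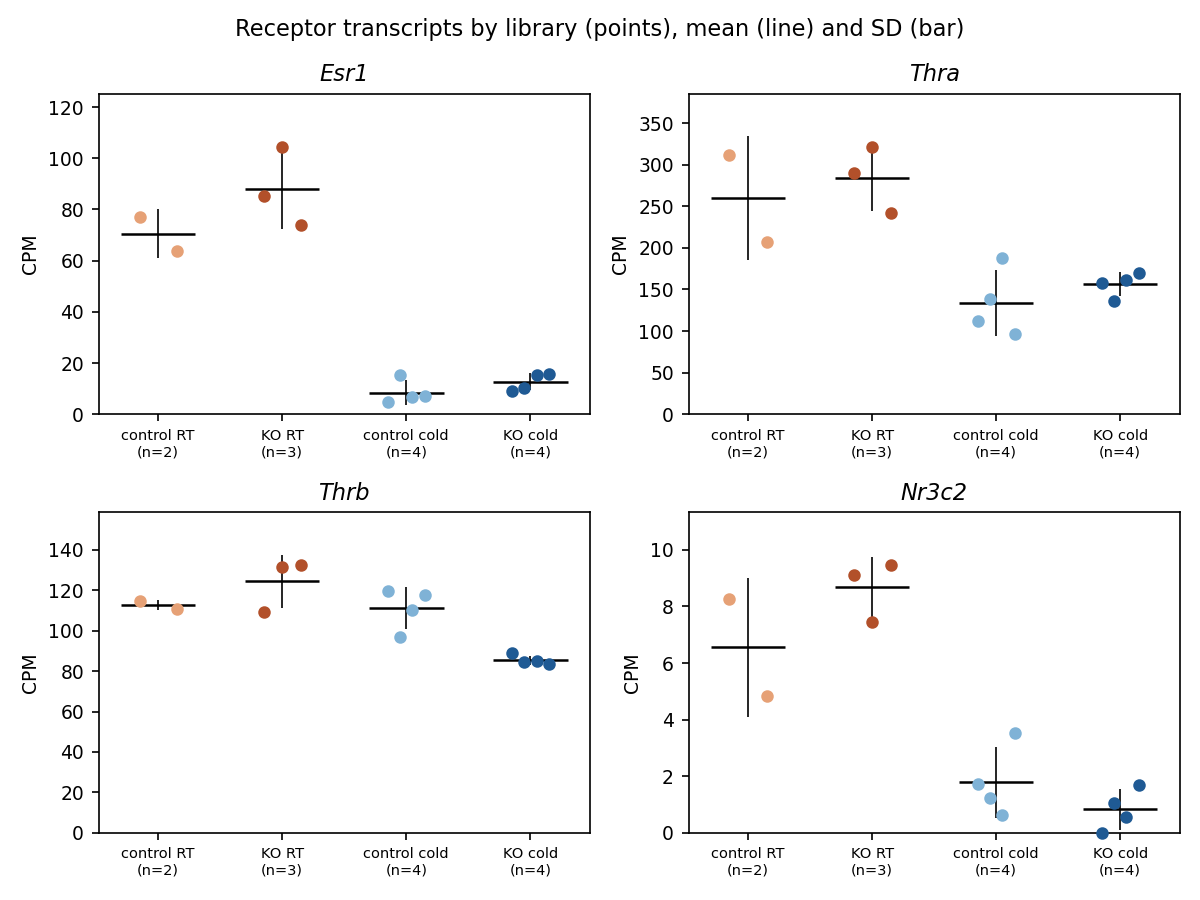
Level of Esr1, Thra, Thrb and Nr3c2 in CPM (vertical axes, each from 0) in the 13 libraries, by group (horizontal axes). Points are libraries, lines are group means and bars are SDs. Esr1, Thra and Nr3c2 lie lower in every cold library than in every RT library, as did 7.47% of the tested genes. Thrb is lowest in the 4 KO cold libraries, at 83.5 to 88.7 CPM, a split not counted over all genes.

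Nr3c2, the least counted of the 4, had the same order of temperatures. It stood at 8.28 and 4.82 CPM in control RT and at 9.12, 7.46 and 9.45 CPM in KO RT. In the cold it stood at 1.73, 1.24, 0.619 and 3.53 CPM in control libraries and at 0, 1.04, 0.563 and 1.69 CPM in KO libraries. The lowest RT library, control RT 2, was still above the highest cold library, control cold 4.

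These Nr3c2 levels rest on few counts: 8 to 18 per library at RT and 0 to 5 in the cold. The library with 0 counts, KO cold 1, allows a level of up to 1.84 CPM, the worth of 3 counts. Nr3c2 passed the filter on low counts only through its RT libraries. The group means were 6.55 ± 2.44 CPM (SD, n = 2) in control RT, 8.67 ± 1.07 (n = 3) in KO RT, 1.78 ± 1.25 (n = 4) in control cold and 0.825 ± 0.719 (n = 4) in KO cold.

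The log2 fold change of Nr3c2 in the cold was −1.91 ± 0.55 in control mice and −3.26 ± 0.54 in KO mice. In summed counts this was 26 against 11 in control mice, a ratio of 3.94 (exact 95% interval 1.88 to 8.83). In KO mice it was 49 against 6, a ratio of 10.3 (4.41 to 29.5). These intervals cover counting error only. The difference of the cold responses was −1.36 ± 0.83.

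Against control mice, Nr3c2 in KO mice differed by −0.98 ± 0.70 in the cold, where the count ratio had an interval from 0.149 to 1.45, and by 0.38 ± 0.46 at RT. The libraries of the genotypes overlapped at both temperatures.

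Thra was lower after cold in both genotypes, by less than Esr1 or Nr3c2 on the log2 scale. At RT it stood at 312 and 207 CPM in control libraries and at 290, 321 and 242 CPM in KO libraries. In the cold it stood at 112, 138, 188 and 96.7 CPM in control libraries and at 158, 136, 161 and 170 CPM in KO libraries. The highest cold value, in control cold 3, was just under the lowest RT value, in control RT 2.

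Group means of Thra were 259.8 ± 74.2 CPM (SD, n = 2) in control RT, 284 ± 39.95 (n = 3) in KO RT, 134 ± 40.2 (n = 4) in control cold and 156 ± 14.4 (n = 4) in KO cold. The log2 fold change of cold against RT was −0.96 ± 0.21 in control mice and −0.86 ± 0.19 in KO mice. The control value depends on control RT 1, without which it was −0.63. The genotypes overlapped at each temperature, with KO minus control at 0.22 ± 0.18 in the cold and 0.13 ± 0.23 at RT, and the cold responses differed by 0.10 ± 0.29.

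What the Thra count holds is limited by the gene's layout. In GRCm38, Thra lies at chr11:98740638-98769006 on the plus strand, and its last 1075 bases (chr11:98767932-98769006) overlap the end of Nr1d1, which runs on the minus strand and encodes the circadian repressor REV-ERB alpha. Exons of 2 of the 4 coding Thra transcripts, Thra-201 and Thra-203, reach into this stretch. Whether counting used the strand is not given in the sources used here. It is thus not known to which gene tags of this stretch were counted, or whether they were counted at all.

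Nr1d1 was also lower in the cold, at 4.24 to 16.3 CPM against 15.2 to 47.8 CPM at RT, and its part in the Thra value was not tested. The gene count also does not separate the Thra transcripts that encode the hormone-binding receptor from those that encode the form that does not bind hormone.

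Thrb, whose Thrb2 form is the receptor of pituitary and hypothalamus and whose Thrb1 form is widespread, had another pattern. At RT it stood at 114 and 111 CPM in control libraries and at 109, 131 and 132 CPM in KO libraries. In the cold, control libraries stood at 120, 97.0, 110.3 and 118 CPM, which overlapped the RT libraries apart from the 97.0 CPM of control cold 2. The KO cold libraries stood at 88.7, 84.5, 84.9 and 83.5 CPM, all of them below every other library of the series, with the nearest at 97.0 CPM. How many of all tested genes had this split was not counted, so nothing is read from it.

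Group means of Thrb were 113 ± 2.55 CPM (SD, n = 2) in control RT, 124 ± 12.96 (n = 3) in KO RT, 111 ± 10.3 (n = 4) in control cold and 85.4 ± 2.28 (n = 4) in KO cold. The log2 fold change of cold against RT was −0.02 ± 0.13 in control mice and −0.54 ± 0.12 in KO mice. The difference between these responses was −0.52 ± 0.18. In the cold, KO minus control was −0.38 ± 0.11, which is 1.30-fold lower, and at RT it was 0.14 ± 0.14.

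Every KO cold library was below every control cold library for Thrb. Of all tested genes, 6.53% were separated that way and 6.28% the other way. The 4 KO cold libraries differed little among themselves, and leaving out any 1 of the 13 libraries kept the cold difference between −0.44 and −0.34.

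Ordered by level, Esr1 and Thra had the same sequence of groups, from KO RT through control RT and KO cold to control cold. For both, only the step from control RT to KO cold lay beyond the spread of the libraries. Nr3c2 ran from KO RT through control RT and control cold to KO cold, and only the step between the temperatures was free of overlap. Thrb ran from KO RT through control RT and control cold to KO cold, and only the last step was free of overlap.

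Esr1, Thra and Nr3c2 had every cold library below every RT library, which 7.47% of the tested genes had. By edgeR's quasi-likelihood test at an adjusted p under 0.05, 3 of the 4 receptor genes (Esr1, Thra and Nr3c2) passed for cold against RT in control mice, where 25.2% of all tested genes passed, and 12.6% of all tested genes passed as lower in the cold. In KO mice 4 of 4 passed, where 18.9% of all tested genes passed, and 9.45% of all tested genes passed as lower in the cold. None of the 4 passed for KO against control in the cold, where 5.93% of genes passed, or at RT, where 0% passed. None passed for the difference of the cold responses, where 0.0181% passed. Nothing is read from these member counts, since the genes were chosen from these data, and the cold comparisons share no libraries with each other while the genotype comparisons reuse them.

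The calls moved with single choices. With relative log expression scaling, or without control cold 2, Thrb passed for KO against control in the cold. In the main fit 5.93% of all tested genes passed there, and the shares in these settings are not given here. Leaving out control RT 1 leaves 1 control RT library. The cold values in control mice were then weaker, at −0.63 for Thra in place of −0.96 and −1.45 for Nr3c2 in place of −1.91.

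The muscle transcripts were highest in 3 of the 5 RT libraries, so the cold values were computed again without these 3, which leaves 1 RT library per genotype. This was chosen after seeing the data, and the lone RT libraries are assumed to vary like the other groups. Over all genes 870 then passed in control mice in place of 2793, and 452 in KO mice in place of 2090, so that a call lost in this setting does not show that muscle transcripts carried the value. Esr1 was then at −2.91 ± 0.38 in control and −2.54 ± 0.35 in KO mice, and Nr3c2 at −1.45 ± 0.83 and −3.38 ± 0.75. Thra was at −0.63 ± 0.27 and −0.63 ± 0.26, and Thrb at 0.00 ± 0.18 and −0.63 ± 0.17. The 2 RT libraries low in muscle were control RT 2 and KO RT 3. They held 63.9 and 74.0 CPM of Esr1, 207 and 242 CPM of Thra and 4.82 and 9.45 CPM of Nr3c2. Each value was above every cold library, for Thra with the highest cold value at 188 CPM. The part of muscle transcripts in these values was not tested. In that setting Esr1 alone of the 4 passed in control mice, and Esr1 and Nr3c2 passed in KO mice.

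**Figure D2:**
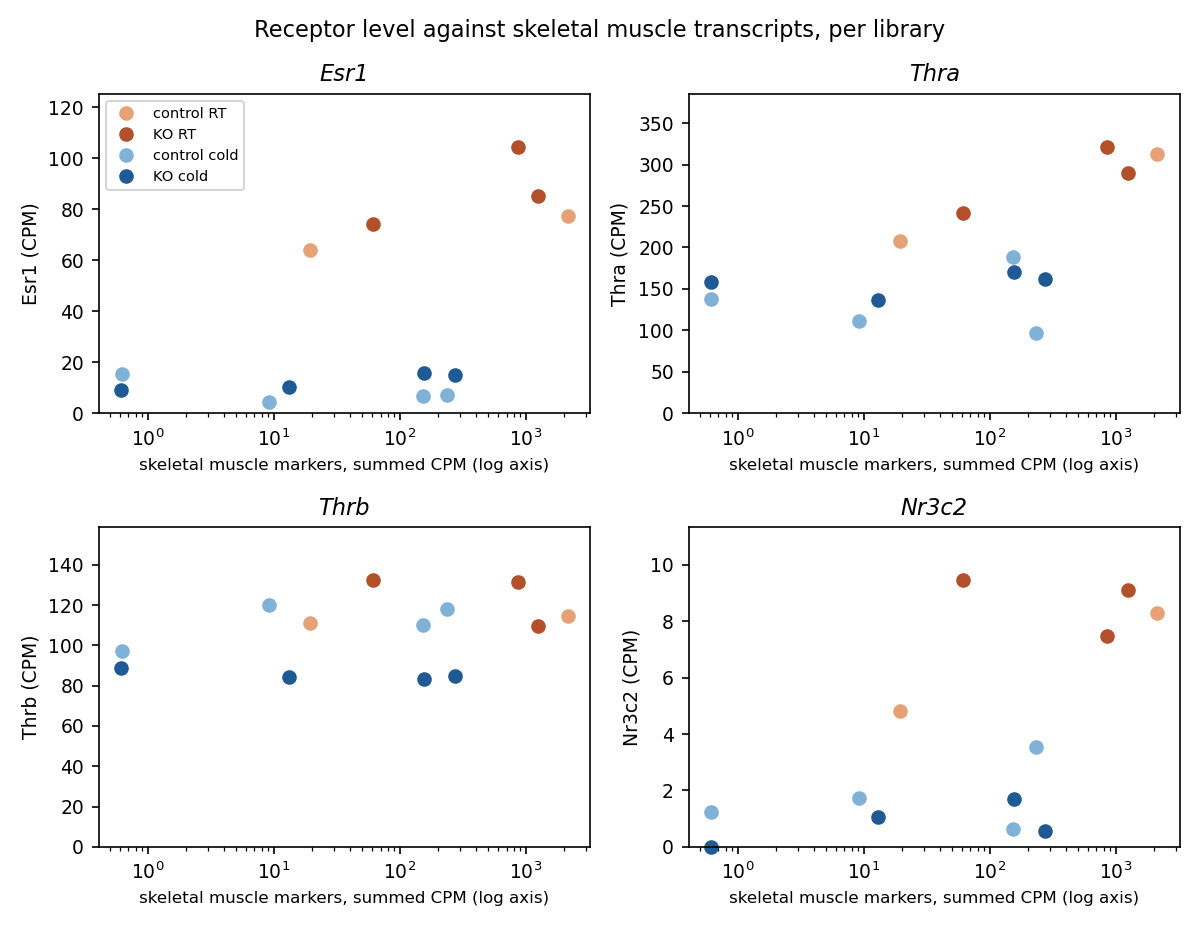
Level of each receptor gene in CPM (vertical axes, from 0) against the summed level of 7 skeletal muscle markers in CPM (horizontal axes, log scale) in the 13 libraries, coloured by group. RT libraries with low muscle transcripts (19.3 and 61.4 CPM) lie above the cold libraries for Esr1, Thra and Nr3c2. For Thra the nearest values are 207 and 188 CPM. The part of muscle transcripts was not tested.

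Markers of fibroblasts and preadipocytes, the stromal cells of the tissue, were summed as well. Their 10 genes reached 921 to 976 CPM in control RT, 714 to 1402 in KO RT, 554 to 1483 in control cold and 579 to 689 in KO cold. In KO mice 5 of 9 tested markers fell in the cold (Col1a1, Col1a2, Col3a1, Lum and Pdgfra), and in control mice 0 of 9 passed, where 18.9% and 25.2% of all tested genes passed. Their part in the KO values of Thrb and Nr3c2 was not tested. No marker of this list was at 0 in every library of a group.

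Across the 13 libraries, log2 CPM of Esr1 and Thra had a Pearson r of 0.893, and after removing the group means r was 0.369. Esr1 and Nr3c2 had an r of 0.832, and 0.0923 within groups. Thra and Thrb, the 2 thyroid hormone receptors, had an r of 0.369, and −0.269 within groups. These are descriptions over libraries that share the temperature groups and their depth.

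The genes whose profiles over the 13 libraries were most like that of Esr1 were Ddx58 (r = 0.970), Gnpat (0.969) and Nfix (0.968). For Thra they were Zfp467 (0.968), Ptms (0.961) and Aatk (0.960), and for Nr3c2 they were Pid1 (0.926), Naprt (0.925) and Dgkd (0.921). Thrb had the loosest likeness to any gene, with Grb14 at 0.862, Urm1 at 0.847 and Cmc4 at 0.845.

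Of 43 other nuclear receptor genes in the table, 27 were tested. In control mice 2 of them rose in the cold (Esrrb and Rora) and 4 fell (Nr1d1, Nr2f6, Rarg and Ppara). In KO mice 3 rose (Rora, Nr1h3 and Esrrb) and 3 fell (Nr1d1, Nr3c1 and Nr2f2). These are 6 of 27 in each genotype, beside 25.2% and 18.9% of all tested genes. The median log2 fold change of the 27 was 0.02 in control and −0.04 in KO mice, against −0.02 and −0.01 over all tested genes. Without the 3 libraries rich in muscle, Esrrb no longer passed in either genotype, Ppara no longer passed in control mice, and Rora, Nr1h3 and Nr1d1 no longer passed in KO mice. Ppara in control mice was also lost without control RT 2, and Esrrb in KO mice without KO RT 2 or KO RT 3. The calls of Rora and Rarg in control mice, and of Nr3c1 and Nr2f2 in KO mice, were not followed through the alternative settings.

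**Figure D3:**
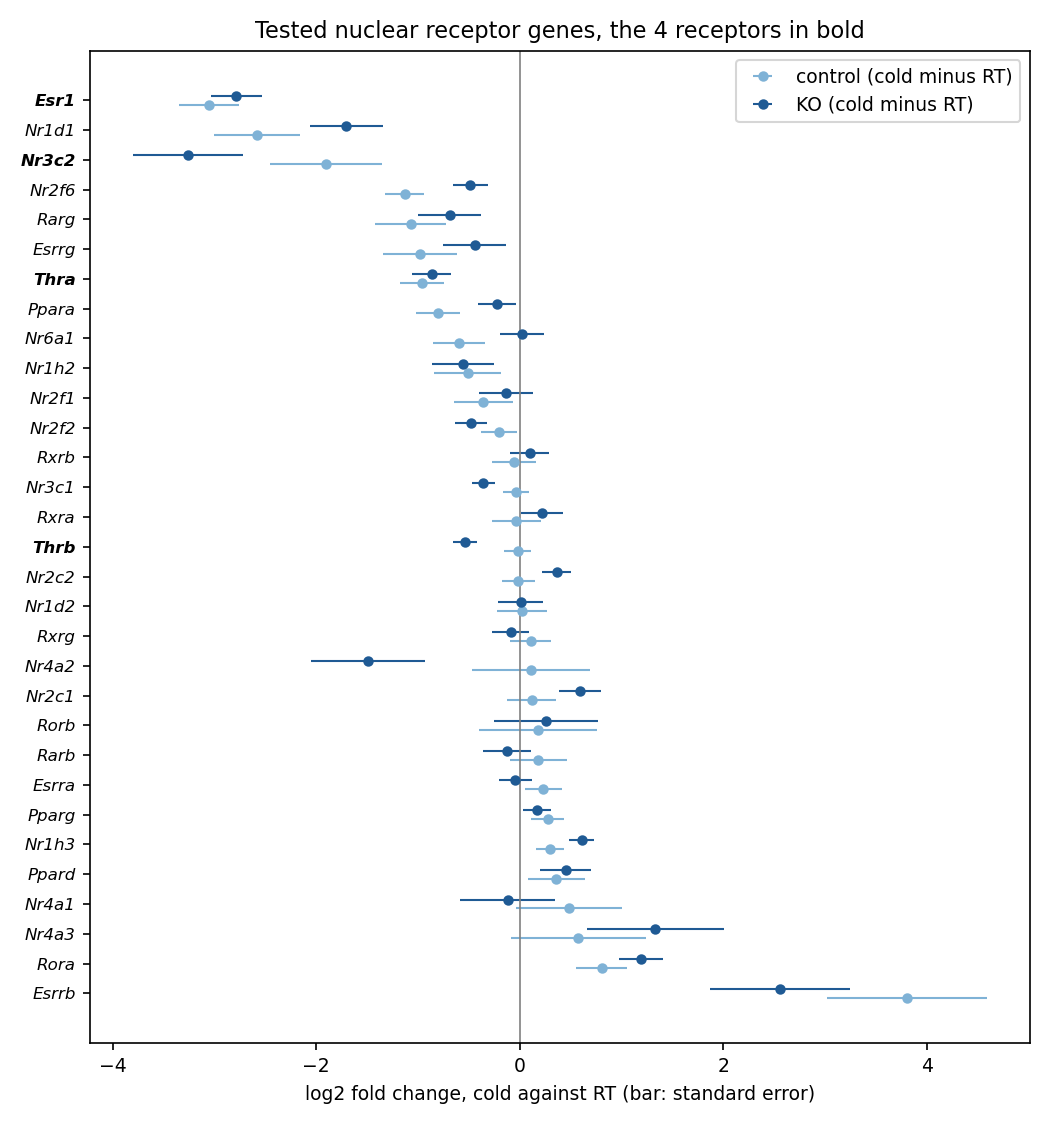
Log2 fold change of cold against RT (horizontal axis) with its standard error (bars) for 31 tested nuclear receptor genes (vertical axis, ordered by the control value), in control mice (light) and KO mice (dark). Esr1, Nr3c2, Thra and Thrb are in bold, and Thrb lies near 0 in control mice.

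Esr2, the estrogen receptor beta gene, and Pgr, the progesterone receptor gene and a classical target of estrogen receptor alpha, had 0 counts in all 13 libraries, where 3 counts are the limit that 0 allows per library. Nr3c1, the glucocorticoid receptor and the closest relative of Nr3c2, was at 196 ± 10.98 CPM (SD, n = 2) in control RT and 192 ± 17.9 (n = 4) in control cold. In KO mice it fell from 174.5 ± 14.96 (n = 3) to 136 ± 5.19 (n = 4), with an adjusted p of 0.0337, and in the cold it was lower in KO than in control mice by a log2 fold change of −0.49 ± 0.10 (adjusted p = 0.00969). The partners Rxra, Rxrb and Rxrg did not pass the test in either cold comparison, with log2 fold changes of −0.03, −0.06 and 0.11 in control mice.

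Around the thyroid hormone receptors, 4 of 8 genes of hormone transport and activation were tested. Dio2, which makes the active hormone, rose in the cold by 2.79 ± 0.51 on the log2 scale in control mice (adjusted p = 0.00102) and by 2.04 ± 0.42 in KO mice (adjusted p = 0.00269). Slc7a5, an amino acid transporter that also carries thyroid hormone, passed as higher in both, with RT libraries at 0 to 2.41 CPM and cold libraries at 1.24 to 20.7 CPM, ranges that overlap.

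Dio1 and Dio3, which encode the other deiodinases, had 0 or 1 count in every library. Without the 3 libraries rich in muscle, Slc7a5 no longer passed in either genotype. None of the 4 tested genes passed for KO against control in the cold. There Dio2 was lower in KO mice by −0.64 ± 0.36 (adjusted p = 0.336 by edgeR's quasi-likelihood test). This Dio2 call depended on the setting. It passed without the filter on low counts, with only the compared libraries, and without the 3 libraries rich in muscle.

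Genes named as thyroid hormone targets went both ways in the cold. Of 13 tested, 3 rose in control mice (Ucp1, Klf9 and Ppargc1a) and 3 fell (Srebf1, Thrsp and Atp2a1), and in KO mice 2 rose (Ucp1 and Klf9) and 3 fell (Srebf1, Thrsp and Acaca), beside 25.2% and 18.9% of all tested genes. Thrsp, a lipogenic gene named for its response to the hormone, fell by 2.36 ± 0.30 in control and 2.10 ± 0.28 in KO mice. Klf9, a transcription factor gene induced by thyroid hormone and glucocorticoids, rose by 0.91 ± 0.17 and 1.18 ± 0.15. Atp2a1 is also a calcium pump gene of fast skeletal muscle. The calls of Atp2a1 in control mice and of Acaca in KO mice were not followed through the alternative settings. Without the 3 libraries rich in muscle, Klf9 and Ppargc1a no longer passed in control mice, and Ppargc1a was also lost there without control RT 1.

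Around Esr1, 8 of 18 estrogen target genes were tested. In the cold 0 rose in either genotype. In control mice 1 fell and in KO mice 2 fell, beside 25.2% and 18.9% of all tested genes that passed in either direction. The list's median log2 fold change was −0.14 in control and 0.19 in KO mice, against −0.02 and −0.01 over all tested genes. Igf1, a growth factor gene, fell by 1.08 ± 0.24 in control mice (adjusted p = 0.00439) and by 2.35 ± 0.23 in KO mice (adjusted p = 7.98e-06), and C3, a complement gene, fell in KO mice. In the cold Igf1 was also lower in KO than in control mice, by −1.09 ± 0.24 (adjusted p = 0.0125), while the difference of its cold responses did not pass (adjusted p = 0.282). Of the genes listed for making or breaking down sex steroids, 6 of 15 were tested. Sex steroids were not measured, and other roles of the listed enzymes were not separated. Hsd17b7 rose in both genotypes and Hsd17b12 in control mice, beside the same shares of all tested genes, 25.2% and 18.9%. Cyp19a1, the aromatase gene, had 0 counts in all libraries. Hsd17b7 in control mice no longer passed without control RT 1 or without the 3 libraries rich in muscle. In KO mice it was lost in 6 of 19 settings: without those 3 libraries, and without KO RT 1, KO RT 2, KO cold 1, KO cold 3 or KO cold 4. Hsd17b12 in control mice no longer passed without control RT 2.

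Around Nr3c2, the genes of corticosteroid conversion and mineralocorticoid response mostly rose in the cold: 8 of 15 tested rose and 1 fell in control mice, and 9 rose and 1 fell in KO mice, beside 25.2% and 18.9% of all tested genes in either direction. The list's median log2 fold change was 1.24 in control and 1.15 in KO mice, against −0.02 and −0.01 over all tested genes. Zbtb16, a transcription factor gene strongly induced by glucocorticoids, rose by 3.40 ± 0.38 in control mice and 3.49 ± 0.31 in KO mice, and Tsc22d3, another such gene, by 1.54 ± 0.26 and 1.55 ± 0.22. Fkbp5, which encodes a co-chaperone of steroid receptors, rose by 2.37 ± 0.50 and 3.50 ± 0.43. Zbtb16 and Fkbp5 are also on the list of androgen targets, and Fkbp5 on that of the chaperones. Of the androgen targets 3 of 6 tested rose in each genotype, beside 25.2% and 18.9% of all tested genes.

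Sgk1, the classical kinase target of aldosterone, rose by 1.26 ± 0.35 (adjusted p = 0.0157) in control mice and 1.15 ± 0.30 (adjusted p = 0.0134) in KO mice. Scnn1g, a subunit gene of the epithelial sodium channel, fell in both. The calls of Sgk1 and Scnn1g were not followed through the alternative settings. Most of these genes also respond to the glucocorticoid receptor, and Hsd11b2, whose enzyme shields the mineralocorticoid receptor from glucocorticoids, had 1 count in 1 library and 0 in the others. Fkbp5 in control mice and Ccn2, the gene of a matricellular growth factor, in KO mice no longer passed without the 3 libraries rich in muscle, and Fkbp5 in control mice was also lost without control RT 1. Atp1b1, a sodium pump subunit gene, was the one gene of the list that differed between genotypes in the cold, lower in KO mice by −1.10 ± 0.15 (adjusted p = 0.000332).

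**Figure D4:**
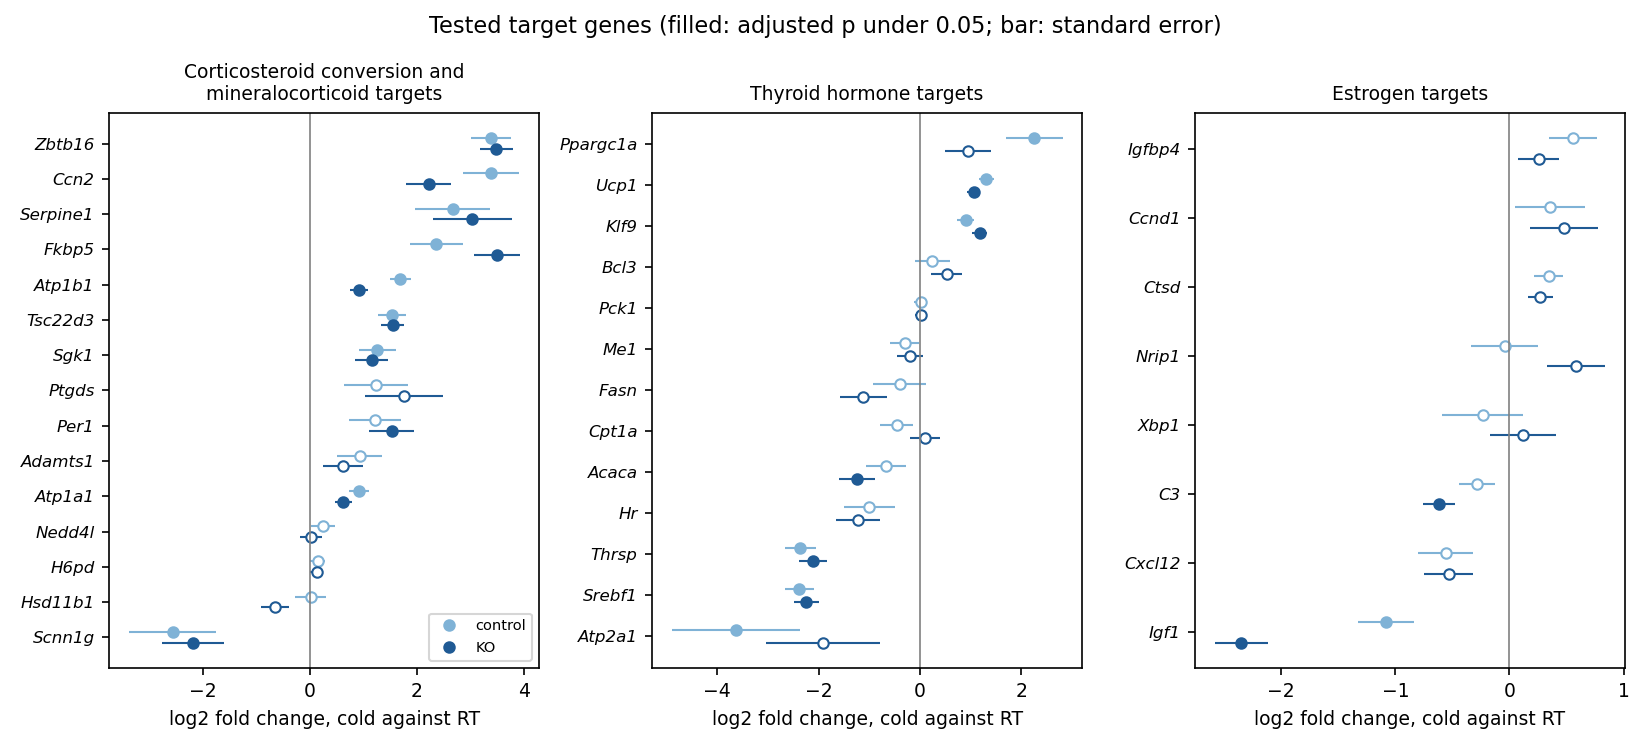
Log2 fold change of cold against RT (horizontal axes) with standard errors (bars) for tested target genes of corticosteroid, thyroid hormone and estrogen receptors, in control (light) and KO mice (dark). Filled points passed the test (adjusted p under 0.05); the corticosteroid genes lie mostly to the right of 0, and Igf1 is the lowest of the estrogen targets in both genotypes.

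Of the 24 coactivators and corepressors tested, 4 rose (Ncoa1, Med1, Ppargc1a and Tbl1x) and 1 fell (Kat2b) in control mice in the cold. In KO mice 3 rose and 1 fell. Of all tested genes, 25.2% and 18.9% passed in these comparisons in either direction. The Kat2b call in control mice was lost in 8 of 19 alternative settings, and that of Tbl1x was not followed. For KO against control in the cold 2 of 24 passed, where 5.93% of all tested genes passed. In the cold, Ncoa1, a steroid receptor coactivator gene, and Ppargc1a, the thermogenic coactivator gene that also binds thyroid hormone receptors, were lower in KO than in control mice, by −0.80 ± 0.13 (adjusted p = 0.00119) and −2.11 ± 0.42 (adjusted p = 0.00714).

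Of the chaperones that hold steroid receptors, 8 of 14 rose in control mice in the cold, 4 of 14 rose in KO mice, and 8 of 14 were lower in KO than in control mice in the cold. Of all tested genes, 25.2%, 18.9% and 5.93% passed in these comparisons in either direction. Hspa4, Hsp90ab1 and Ppid were lower there by −0.54 ± 0.10, −0.69 ± 0.14 and −0.63 ± 0.13. The rises of Hspa4, Hsp90aa1 and St13 in KO mice, and that of St13 in control mice, no longer passed without the 3 libraries rich in muscle. In KO mice Hsp90aa1 was also lost without KO RT 1 or KO RT 2, and St13 without KO RT 1. The difference of the cold responses passed for 0 of these 14 genes by edgeR, with the smallest adjusted p at 0.432 for Hspa4.

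Over the 112 tested genes of the 9 lists, 38 passed in control mice in the cold (33.9%) and 34 in KO mice (30.4%), against 25.2% and 18.9% over all genes. For KO against control in the cold 16 passed (14.3%), against 5.93%, and 8 of the 16 were steroid receptor chaperones. The lists were chosen with earlier results of these data known, so nothing is read from these shares. Without the 3 libraries rich in muscle, 21 and 13 passed in the cold comparisons, where 870 and 452 of all genes passed. At RT 0 passed, and the fit called 0 genes at all there, with 346 at an unadjusted p under 0.05 and 8 genes called by DESeq2.

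Promoters were searched for short motifs. RefSeq (GRCm38.p6) gave windows of 300 bases, 250 before to 50 after a start site, for Esr1 (2 starts), Thrb (2 starts) and Nr3c2 (1 start), and Thra is not among them. The motifs were AGGTCA, the core read by thyroid hormone and estrogen receptors, AGAACA, the core read by corticosteroid receptors, and TGACGTCA, the cAMP response element, on both strands; none of the 3 is contained in another. Of 32851 promoter windows, 16.26% held AGGTCA, 18.97% held AGAACA and 1.79% held TGACGTCA.

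The 250 bases before a start are shown for the pair of genes that were lowest in the cold and for the first start of Thrb, with a motif match in capitals. Their positions are chr10:4611739-4611988 for Esr1, chr8:76902080-76902329 for Nr3c2 and chr14:17660710-17660959 for Thrb, all on the plus strand.
Esr1: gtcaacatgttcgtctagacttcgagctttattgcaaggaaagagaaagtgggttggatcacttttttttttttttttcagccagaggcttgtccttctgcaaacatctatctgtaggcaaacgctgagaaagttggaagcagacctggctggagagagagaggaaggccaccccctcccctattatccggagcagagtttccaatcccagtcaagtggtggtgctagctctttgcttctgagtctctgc
Nr3c2: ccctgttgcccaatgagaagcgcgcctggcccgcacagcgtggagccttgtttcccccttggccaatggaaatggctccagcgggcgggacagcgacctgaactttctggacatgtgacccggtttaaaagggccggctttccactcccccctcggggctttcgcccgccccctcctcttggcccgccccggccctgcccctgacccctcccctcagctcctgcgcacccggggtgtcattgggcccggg
Thrb: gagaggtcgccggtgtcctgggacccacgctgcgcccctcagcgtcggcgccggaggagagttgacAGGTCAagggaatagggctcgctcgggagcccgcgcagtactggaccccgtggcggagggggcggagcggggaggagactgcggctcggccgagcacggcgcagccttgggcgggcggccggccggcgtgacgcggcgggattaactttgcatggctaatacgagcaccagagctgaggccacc
The windows of Esr1 and Nr3c2 held none of the 3 motifs. The first Thrb window held AGGTCA at position −184 from the start, and the second Thrb window held AGAACA on the plus strand at −7 and on the other strand at −23. These matches describe the letters of the reference and say nothing of binding.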

How the data were processed

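Brown fat RNA of 13 libraries was sequenced by 3′ tag counting (QuantSeq), per the labels' protocols. The values are whole-number counts of reads per gene in 1 table deposited by the authors, with Ensembl 103 gene annotation per the file's name. Per the submitters' processing notes the build was GRCm39 and the tools included HTSeq 0.12.3, STAR 2.7.10b, UMI-tools 1.1.2, Trim Galore 0.6.7, limma and edgeR. Their order, whether counting used the strand and whether molecular identifiers were collapsed is not given in the sources used here. All libraries carry the same batch label. By the numbers in the library names, the RT libraries rich in muscle stand together, apart from the other RT libraries and from the cold libraries. What these numbers stand for is not given, and their part in the values was not tested.

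Of 55632 table lines, 275 repeated identifiers were dropped, which left 55357. Genes were kept by filterByExpr with a minimum count of 10, which left 11073 tested genes. Counts were scaled by TMM, fitted with 1 coefficient per group over all 13 libraries in edgeR 4.0.16 (quasi-likelihood, R 4.3.3), tested two-sided and adjusted by Benjamini-Hochberg over all tested genes, with a threshold of 0.05. CPM values use the TMM-scaled library size, and log2 CPM a prior count of 2. The SE of a log2 fold change is its absolute value divided by the square root of the quasi-likelihood F statistic. It is thus derived from the test statistic and is not a separately fitted standard error. The fit was tested on simulated data. The 5 comparisons were KO against control at each temperature, cold against RT in each genotype, and the difference of the cold responses. The receptor genes, the 9 pathway lists and the 8 marker lists were chosen with earlier results of these data known; some genes are not reported here and were left out of the lists. The genes named from each list were up to 4 that passed with the smallest p in a comparison, or up to 2 where none passed; counts and other names were chosen after their values were seen. The 3 genes most like each receptor were taken among genes of mean CPM 5 or more.

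Libraries of a group differed by more than counting noise (chi-square per degree of freedom 1.97 to 6.66 over 16 pairs). Alternatives were relative log expression scaling, no filter, DESeq2 1.42.0, only the compared libraries, each library left out, a replicate block, and, chosen after seeing the data, leaving out the 3 RT libraries with over 500 CPM of muscle markers. Single pathway genes followed through these alternatives were up to 4 that passed with the smallest p per list and comparison, or up to 2 where none passed. Calls of other genes were not followed. Gene positions and coding runs are of GENCODE on GRCm38, not the build of the counts, and no position was carried between builds.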

Additional observations from a re-analysis of the deposited data

How the results depend on the processing

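The direction of every receptor gene's cold response in both genotypes was kept in all settings, except Thrb in control mice, which stayed near 0 (−0.06 to 0.04). Leaving out single libraries moved the cold value in control mice between −3.52 and −2.84 for Esr1, −1.21 and −0.63 for Thra and −2.40 and −1.45 for Nr3c2, and in KO mice between −3.79 and −2.91 for Nr3c2. For KO against control in the cold it gave 0.36 to 1.05 for Esr1 and −1.51 to −0.48 for Nr3c2, and at RT −0.13 to 0.45 for Thra. The difference of the cold responses ranged from 0.057 to 0.74 for Esr1, −0.22 to 0.36 for Thra and −1.89 to −0.86 for Nr3c2. The genes called ranged from 392 to 716 for KO against control in the cold, 0 to 3 at RT, 1067 to 2821 and 1219 to 2271 for cold against RT in control and KO mice, and 0 to 4 for the difference.

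The replicate numbers share only a number: same-numbered libraries had correlated deviations of −0.227 to 0.333, over 0.1 in 3 of 16 pairs. With the replicate block, Nr3c2 in KO mice was at −3.79 and the difference called 0 genes in place of 2. Without the filter on low counts, 50 genes were called for KO against control at RT and 133 for the difference, with 31, 4 and 9 pathway genes for KO against control in the cold, at RT and for the difference. DESeq2 called 8 and 28 genes at RT and for the difference. With only the compared libraries, 1685 genes were called for cold against RT in control mice, and Nr3c2 could not be fitted there or for KO against control in the cold, since fewer libraries left it under the filter.

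Without the 3 RT libraries rich in muscle, 870 and 452 genes (21 and 13 pathway genes) were called for cold against RT in control and KO mice and 0 for the difference. Thra in control mice was at −0.63, KO against control at RT was 0.26 for Thrb and 0.96 for Nr3c2, and the Nr3c2 difference was −1.93. The causes were not tested. Of the values of the named pathway genes, Stim1 and Stim2 under alternatives, 1916 stayed passed or not passed, 74 lost the call and 15 gained it. Among values that had passed, 0 turned direction. Turns of direction among values that had not passed were not counted.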
